A study of Mus musculus with 36 samples.

Results

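The enzymes of glycolysis, with the isozymes of each step, were followed in mouse liver and retina after 2 drugs that block the oxygen-sensing hydroxylases. The set holds 31 genes of the 22558 listed in each expression table. It was put together by name, with earlier results of these data known. It comprises Hk1, Hk2, Hk3, Hkdc1, Adpgk, Gpi1, Pfkl, Pfkm, Pfkp, the 4 Pfkfb genes, Aldoa, Aldoc, Tpi1, Gapdh, Gapdhs, Pgk1, Pgk2, Pgam1, Pgam2, Bpgm, Eno1, Eno2, Eno3, Pklr, Pkm (listed as Pkm2), Gpd1, Gpd1l and Gpd2. C57BL/6 mice had received roxadustat, DMOG or PBS as control, with 6 libraries per treatment under each tissue name and 36 in all. All groups share the strain, no allele or further agent is labelled for any of them, and doses, routes, times and ages are not given in the labels used here. Total RNA was sequenced on a stranded kit after removal of ribosomal RNA, and values are FPKM, which are scaled to transcript length and library size.

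The 2 tissue names and the RNA did not match. The 18 libraries labelled retina held liver RNA, with the hepatocyte gene Apoa1 at 6299 to 12786 FPKM and the photoreceptor gene Sag at 0.473 FPKM or less. The 18 libraries labelled liver held retina RNA, with Sag at 2166.2 to 3683 FPKM, all 10 photoreceptor markers above a median of 1 FPKM and Apoa1 at 0.516 FPKM or less. Below, "liver RNA" means the libraries labelled retina and "retina RNA" the libraries labelled liver. Of 9 hepatocyte markers in liver RNA 8 had a median above 1 FPKM and Alb was listed at 0 in all 18 libraries, while the fetal gene Afp read 4062 to 12506 FPKM. Library totals were 433021 to 540324 FPKM for liver RNA and 542785 to 617853 FPKM for retina RNA. One liver RNA library, DMOG replicate 5, stood apart from its group in known targets of the drugs: Egln3, an oxygen-sensing hydroxylase gene induced by hypoxia, read 8.23 FPKM there, against 46.4 to 72.5 FPKM in the other 5 DMOG libraries and 5.19 to 8.29 FPKM in PBS libraries. Counts of called members in liver RNA are therefore given with and without it, as are the values of members whose DMOG call changes without it. By Xist and Y-linked genes, liver RNA was from 1 female and 5 male libraries with roxadustat, 4 female and 2 male with DMOG, and 3 of each with PBS. Retina RNA came from 3 of each with roxadustat, 2 female and 4 male with DMOG, and 3 of each with PBS. Sex was set by the larger of Xist and the Y-linked sum, and some retina RNA libraries read both. These were 18.4 and 4.58 FPKM in roxadustat replicate 5, 22.2 and 2.28 FPKM in DMOG replicate 2, and 1.29 and 77.5 FPKM in PBS replicate 6.

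Glycolysis turns glucose into pyruvate in a fixed chain of enzymes, and most steps have isozymes that are used by different tissues. Hypoxia-inducible factor (HIF) is a transcription factor that is broken down when prolyl hydroxylases mark it, and several glycolysis genes are textbook HIF targets. DMOG, an analogue of 2-oxoglutarate, and roxadustat both inhibit these hydroxylases. Adult liver runs the chain in both directions and also makes glucose, whereas photoreceptors of the retina make lactate from much of their glucose even when oxygen is present. In bulk RNA, fewer cells of a type and less RNA per cell cannot be told apart. Gapdh, Eno1, Pgk1, Aldoa, Tpi1, Pgam1 and Pkm have near-identical pseudogenes, so their levels are uncertain by whatever share of reads the counting moved between copies, and the Pkm2 row does not separate the M1 and M2 splice forms.

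Promoters of members that moved together are shown because hypoxia response elements have the core letters ACGTG or GCGTG. Windows of 250 bases before each RefSeq gene start (build GRCm38.p6, while the deposited values were made on mm9) were searched on both strands for these 2 motifs. The motifs cannot match the same 5 letters, and CACGTG, the E-box, contains ACGTG on each strand. RefSeq windows were matched for 30 of 31 members, and Gpd1 was without one. Either motif was found for 21 of 30 members (70%), against 41.5% of 27025 genes. By window, of which some genes have several, 61.2% of 49 member windows and 38.6% of 32851 windows in all held one. ACGTG was in 32.7% of member windows and 16.6% of all, and GCGTG in 40.8% and 28.2%. The windows below belong to 5 members that rose in liver RNA, 4 with a match and Gpi1 with none, and run 5′ to 3′ in the direction of the gene with motif letters in capitals. They lie at chr10:78009808-78010057 (minus strand) for Pfkl, chr13:6648772-6649021 (minus strand) for Pfkp, chrX:106186850-106187099 (plus strand) for Pgk1, chr19:41911621-41911870 (plus strand) for Pgam1 and chr7:34230337-34230586 (minus strand) for Gpi1.
Pfkl: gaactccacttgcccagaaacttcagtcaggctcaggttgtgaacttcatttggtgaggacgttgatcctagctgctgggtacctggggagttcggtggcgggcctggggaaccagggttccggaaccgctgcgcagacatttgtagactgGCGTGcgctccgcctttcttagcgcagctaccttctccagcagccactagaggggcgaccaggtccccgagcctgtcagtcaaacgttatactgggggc
Pfkp: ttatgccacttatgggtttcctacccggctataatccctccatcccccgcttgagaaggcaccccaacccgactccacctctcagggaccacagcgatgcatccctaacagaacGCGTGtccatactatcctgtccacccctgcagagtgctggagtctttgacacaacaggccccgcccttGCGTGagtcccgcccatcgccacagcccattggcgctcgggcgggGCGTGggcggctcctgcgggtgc
Pgk1: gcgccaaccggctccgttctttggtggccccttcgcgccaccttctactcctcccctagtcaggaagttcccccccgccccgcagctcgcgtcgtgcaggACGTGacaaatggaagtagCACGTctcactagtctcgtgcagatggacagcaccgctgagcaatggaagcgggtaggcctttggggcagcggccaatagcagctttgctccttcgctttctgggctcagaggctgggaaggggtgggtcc
Pgam1: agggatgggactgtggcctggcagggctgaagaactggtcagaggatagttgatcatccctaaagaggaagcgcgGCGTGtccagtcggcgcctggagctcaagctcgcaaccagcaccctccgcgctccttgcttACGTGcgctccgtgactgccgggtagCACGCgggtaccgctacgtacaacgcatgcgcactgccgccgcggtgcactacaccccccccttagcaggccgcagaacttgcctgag
Gpi1: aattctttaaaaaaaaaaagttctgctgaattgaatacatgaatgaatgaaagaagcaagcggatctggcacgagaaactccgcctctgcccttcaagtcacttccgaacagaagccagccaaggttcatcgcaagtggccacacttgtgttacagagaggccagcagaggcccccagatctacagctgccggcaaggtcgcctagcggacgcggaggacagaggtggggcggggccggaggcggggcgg
A match is a description of letters and not a binding site. All genes with a window served as the comparison, with no matching for expression or base content. Among the 13 members that rose with DMOG in liver RNA, 11 had a match, and Gpi1 and Tpi1 had none. Gpd1l, which fell with DMOG there, and Pfkm and Adpgk, which gave no call there, also had matches. Whether matches go with the responses was not tested. In Pfkl the motif starts 99 bases before the gene start, in Pfkp at 136, 68 and 23 bases, in Pgk1 at 150 and, on the opposite strand, 131 bases, and in Pgam1 at 175, 114 and, on the opposite strand, 88 bases.

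Summed over the 31 members, glycolysis messages came to 2778 to 3678 FPKM (median 3226) in roxadustat, 1656 to 4627 FPKM (median 3847) in DMOG and 1414 to 1854 FPKM (median 1639) in PBS libraries of liver RNA. In retina RNA the sums were 7418 to 9874 FPKM (median 8067) with roxadustat, 5578 to 7146 FPKM (median 6005) with DMOG and 4574 to 5663 FPKM (median 5073) with PBS. The lowest DMOG sum in liver RNA belonged to replicate 5, and all roxadustat sums lay above all PBS sums in both tissues. Of the 31 genes, 27 passed the filter of a mean of at least 0.5 FPKM in each tissue and 25 passed in both. Gapdhs and Pgk2, the sperm forms of glyceraldehyde-3-phosphate dehydrogenase and phosphoglycerate kinase, passed in neither, and Pgk2 was listed at 0 in all 36 libraries. Hkdc1 and Eno2 also failed in liver RNA, and Hk3 and Pklr, the liver and red cell pyruvate kinase, failed in retina RNA. Tests below were made with limma on log2(FPKM + 0.5), fitted over all genes that passed, with Benjamini-Hochberg adjustment over them and a threshold of 0.05 for a call. Fold changes are given as log2 ± SE on that scale with 6 libraries per group.

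In liver RNA, roxadustat raised the core chain from hexokinase to pyruvate kinase. Against PBS, 10 of 27 members rose and 0 fell, where 2.16% of the 12657 genes tested rose and 2.02% fell. The rising members were Hk1, Gpi1, Pfkl, Aldoa, Tpi1, Gapdh, Pgk1, Pgam1, Eno1 and Pkm2. In 12 of 27 members all roxadustat values lay above all PBS values, as in 2.76% of genes, and in 1, Pfkfb1, all lay below, as in 2.73% of genes. The median log2 fold change was 0.54 over members and 0.00 over all genes tested. Without DMOG replicate 5, which enters the shared spread, 14 members rose and 0 fell, against 4.12% and 4.65% of genes. The members added were Hk2, Pfkp, Pfkfb3 and Aldoc, at adjusted p of 0.000176 to 0.0044. With sex as a term, the 10 calls stayed, the same 4 members were added at adjusted p of 0.0322 to 0.0485, and 0 fell. The share of all genes called in that fit is not given, so these calls do not compare the members with other genes.

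DMOG also raised the core chain in liver RNA. Against PBS, 13 of 27 members rose and 2 fell, where 8.26% of genes rose and 11.7% fell. The members that rose were Hk1, Hk2, Gpi1, Pfkl, Pfkp, Pfkfb3, Aldoa, Aldoc, Tpi1, Gapdh, Pgk1, Pgam1 and Eno1, and those that fell were Gpd1 and Gpd1l, a smaller share than over all genes. The median was 0.71 over members and 0.01 over all genes. With every library scaled to an equal total, 12 rose and 4 fell, against 4.61% and 21.2% of genes. In each of the 13, replicate 5 was the lowest DMOG library, within the PBS range for 12 and below it for Hk2, so that 0 members had groups apart in the higher direction (1.33% of genes) and 1, Eno3, in the lower (1.45% of genes). Without replicate 5, 15 members rose and 5 fell, against 17.3% and 18.1% of genes, with Hk3 and Pkm2 added among the higher and Gpd2, Pfkfb1 and Pklr among the lower, whose share was then close to that of all genes. Groups then stood apart for 14 members upward and 2 downward, against 8.79% and 9.66% of genes. Both drugs were set against the same 6 PBS libraries, so their values are given side by side and their calls are not counted together.

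**Figure D1:**
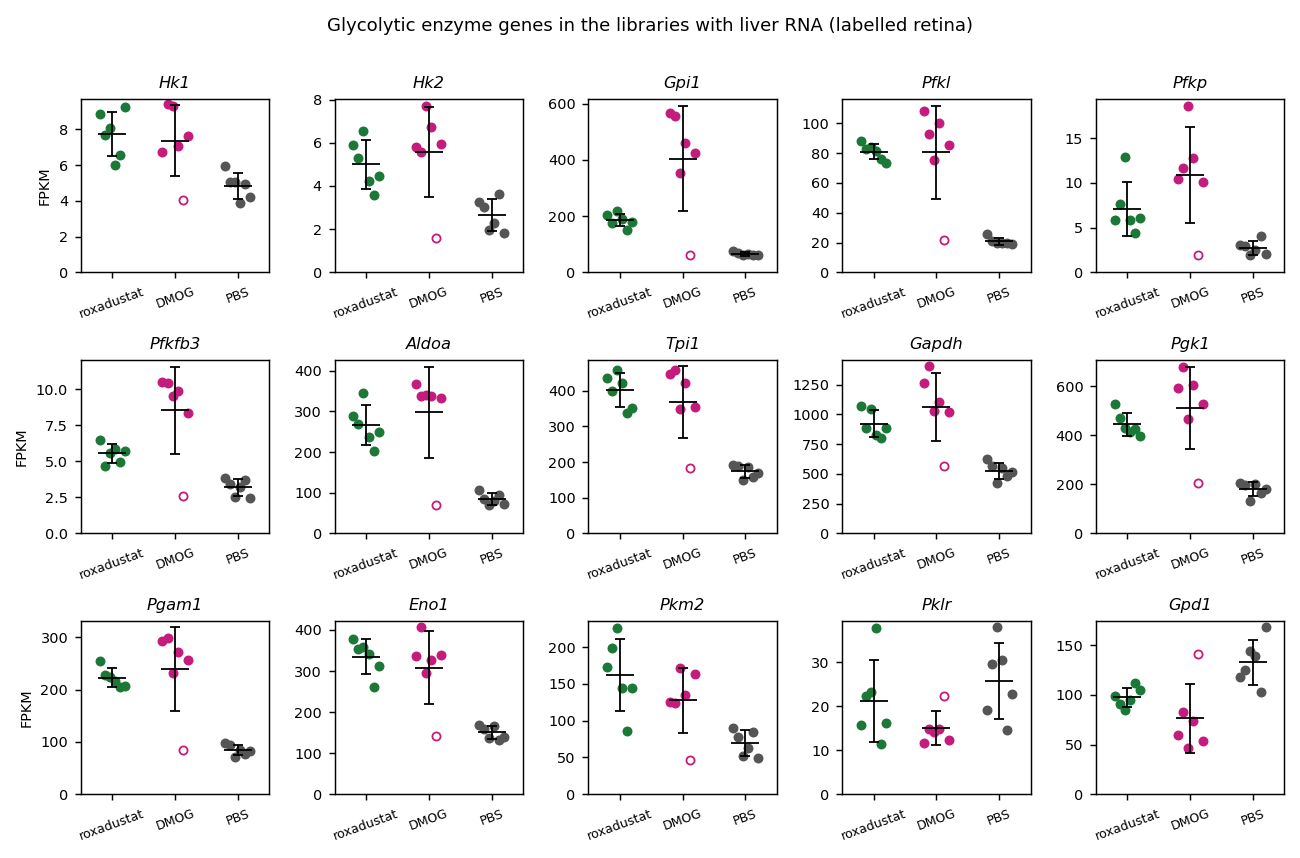
Levels in FPKM of 15 glycolysis genes in liver RNA (libraries labelled retina), 1 panel per gene, with 1 point per library, bars for the mean and SD, and columns for roxadustat, DMOG and PBS (6 libraries each). The open circle is DMOG replicate 5, which lies at the PBS level for Gpi1 (62.5 FPKM), Pfkl (21.4 FPKM) and Aldoa (70.7 FPKM).

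Sugar capture came first in the chain. Hexokinases add the phosphate that traps glucose in the cell. In liver RNA Hk1, the housekeeping form, measured 6.01 to 9.24 FPKM (median 7.88) in roxadustat libraries, 4.04 to 9.43 (median 7.35) in DMOG libraries and 3.88 to 5.95 (median 5.01) in PBS libraries. The lowest roxadustat library lay above the highest PBS library, and Hk1 rose by 0.62 ± 0.16 (adjusted p = 0.0322) with roxadustat and 0.52 ± 0.16 (adjusted p = 0.0265) with DMOG. Leaving out any of 8 of the 18 libraries lost the roxadustat call for Hk1, and any of 5 lost its DMOG call. Without DMOG replicate 5, Hk1 rose by 0.62 ± 0.12 (adjusted p = 0.00206) with roxadustat and 0.67 ± 0.12 (adjusted p = 0.000355) with DMOG. Hk2, the form that insulin-sensitive and growing tissues use, measured 3.56 to 6.54 FPKM (median 4.88) in roxadustat libraries, 1.61 to 7.72 (median 5.90) in DMOG libraries and 1.801 to 3.61 (median 2.66) in PBS libraries. DMOG replicate 5 was lower than all PBS libraries. Hk2 rose by 0.86 ± 0.26 (adjusted p = 0.0246) with DMOG, and its difference with roxadustat, 0.81 ± 0.26 (adjusted p = 0.082), missed the threshold although only the lowest roxadustat value (3.56 FPKM) lay within the PBS range. The DMOG call for Hk2 was lost when any of 6 of the 18 libraries was left out. Hk3, a form known from white blood cells, measured 4.71 to 22.3 FPKM (median 13.0) in roxadustat libraries, 4.30 to 24.6 (median 17.6) in DMOG libraries and 5.29 to 12.9 (median 8.86) in PBS libraries. All 3 groups overlapped, and the log2 differences from PBS were 0.49 ± 0.37 (adjusted p = 0.509) with roxadustat and 0.71 ± 0.37 (adjusted p = 0.184) with DMOG. Without DMOG replicate 5 it was 1.03 ± 0.31 (adjusted p = 0.0145). Summed macrophage markers (8 of 9 listed, none at 0 throughout) ran from 414 to 954 FPKM with roxadustat, 382 to 1130 FPKM with DMOG and 498 to 947 FPKM with PBS. The DMOG minimum was replicate 5, the other 5 DMOG libraries had 731 to 1130 FPKM, and 5 of the 6 PBS libraries had 612 FPKM or less. Summed neutrophil markers ran from 877 to 1864, 915 to 2642 and 844 to 1955 FPKM in the same order of groups. Their part in the hexokinase, Pfkp and Pkm2 results was not tested.

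Adpgk, a kinase that uses ADP to phosphorylate glucose, stayed between 7.70 and 14.0 FPKM over the 18 liver RNA libraries. Its differences from PBS were 0.02 ± 0.12 (adjusted p = 0.951) with roxadustat and 0.10 ± 0.12 (adjusted p = 0.569) with DMOG. Gpi1, which turns glucose-6-phosphate into fructose-6-phosphate, measured 151 to 217 FPKM (median 185) in roxadustat libraries, 62.5 to 568 (median 442) in DMOG libraries and 61.1 to 76.0 (median 62.9) in PBS libraries. Roxadustat and PBS libraries were far apart, and the DMOG libraries other than replicate 5 (355 to 568 FPKM) were higher still. Gpi1 rose by 1.49 ± 0.37 (adjusted p = 0.0275) with roxadustat and 2.34 ± 0.37 (adjusted p = 0.000959) with DMOG, the largest log2 fold change of any member with DMOG. Without replicate 5 the DMOG change was 2.82 ± 0.12 (adjusted p = 2.07e-11). The roxadustat call for Gpi1 was lost when any of 8 of the 18 libraries was left out. Without DMOG replicate 5, which enters the shared spread, the roxadustat change of Gpi1 was 1.49 ± 0.11 (adjusted p = 7.67e-08).

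Phosphofructokinase commits sugar to the chain, and its liver form Pfkl moved most with roxadustat. Pfkl measured 73.4 to 87.8 FPKM (median 82.2) in roxadustat libraries, 21.4 to 108 (median 89.2) in DMOG libraries and 19.0 to 25.6 (median 19.7) in PBS libraries in liver RNA. No roxadustat library came near the PBS range, and of the DMOG libraries replicate 5 alone fell in it. The rise was 1.94 ± 0.27 (adjusted p = 0.000555) with roxadustat and 1.78 ± 0.27 (adjusted p = 0.000792) with DMOG. Pfkp, the platelet form, measured 4.41 to 12.9 FPKM (median 5.96) in roxadustat libraries, 1.95 to 18.5 (median 11.1) in DMOG libraries and 1.91 to 4.09 (median 2.75) in PBS libraries. Its roxadustat libraries all exceeded the PBS libraries, by 1.18 ± 0.36 (adjusted p = 0.0715), which missed the threshold, while the DMOG difference was called at 1.62 ± 0.36 (adjusted p = 0.00478). Pfkm, the muscle form, stayed at 3.62 to 4.87 FPKM (median 4.11) in roxadustat libraries, 3.39 to 6.53 (median 3.82) in DMOG libraries and 3.56 to 5.12 (median 3.84) in PBS libraries. Its groups overlapped, with differences of 0.05 ± 0.12 (adjusted p = 0.855) with roxadustat and 0.07 ± 0.12 (adjusted p = 0.682) with DMOG.

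Pfkfb enzymes make and remove fructose-2,6-bisphosphate, the activator of phosphofructokinase. Pfkfb3, whose kinase activity dominates, measured 4.66 to 6.47 FPKM (median 5.68) in roxadustat libraries, 2.59 to 10.5 (median 9.72) in DMOG libraries and 2.45 to 3.86 (median 3.33) in PBS libraries in liver RNA. All roxadustat libraries exceeded the PBS libraries. The log2 difference was 0.72 ± 0.24 (adjusted p = 0.092) with roxadustat, which missed the threshold, and 1.197 ± 0.24 (adjusted p = 0.00234) with DMOG, which passed. Pfkfb1, the liver form, gave no call, at 5.91 to 8.26 FPKM (median 7.04) in roxadustat libraries, 5.13 to 15.1 (median 6.00) in DMOG libraries and 8.92 to 12.7 (median 10.3) in PBS libraries. DMOG replicate 5 (15.1 FPKM) was above all PBS libraries, and the differences were -0.52 ± 0.22 (adjusted p = 0.205) with roxadustat and -0.39 ± 0.22 (adjusted p = 0.219) with DMOG. Without replicate 5 the DMOG difference was -0.57 ± 0.19 (adjusted p = 0.0235). Pfkfb2 stayed between 2.45 and 3.64 FPKM and Pfkfb4 between 0.936 and 1.94 FPKM over all groups.

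Aldolase splits fructose-1,6-bisphosphate and triose phosphate isomerase interconverts its products. Aldoa, the muscle and general form, measured 202 to 346 FPKM (median 259) in roxadustat libraries, 70.7 to 366 (median 338) in DMOG libraries and 68.7 to 107 (median 82.0) in PBS libraries in liver RNA. The roxadustat and PBS ranges lay well apart, and the rise was 1.64 ± 0.30 (adjusted p = 0.00392) with roxadustat and 1.65 ± 0.30 (adjusted p = 0.00163) with DMOG. Aldoc, the brain form, measured 9.95 to 14.3 FPKM (median 13.1) in roxadustat libraries, 7.99 to 24.2 (median 18.5) in DMOG libraries and 6.58 to 9.94 (median 8.44) in PBS libraries. It rose by 0.95 ± 0.19 (adjusted p = 0.00221) with DMOG, while the roxadustat difference of 0.54 ± 0.19 (adjusted p = 0.109) was not called. Tpi1 measured 339 to 459 FPKM (median 411) in roxadustat libraries, 184 to 458 (median 388) in DMOG libraries and 151 to 191 (median 177) in PBS libraries. It rose by 1.203 ± 0.17 (adjusted p = 0.000636) with roxadustat and 1.03 ± 0.17 (adjusted p = 0.00104) with DMOG, and replicate 5 was again the DMOG library in the PBS range.

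Steps below the trioses rose with both drugs in liver RNA. Gapdh, the glyceraldehyde-3-phosphate dehydrogenase of most cells, measured 804 to 1074 FPKM (median 887) in roxadustat libraries, 565 to 1408 (median 1062) in DMOG libraries and 426 to 624.8 (median 531) in PBS libraries. The rise was 0.81 ± 0.17 (adjusted p = 0.00799) with roxadustat and 0.97 ± 0.17 (adjusted p = 0.00114) with DMOG. Pgk1, the first step that makes ATP, measured 397 to 528 FPKM (median 428) in roxadustat libraries, 206 to 681 (median 562) in DMOG libraries and 133 to 206 (median 191) in PBS libraries. Roxadustat libraries all lay above PBS libraries, and DMOG replicate 5 sat at the top of the PBS range. Pgk1 rose by 1.30 ± 0.21 (adjusted p = 0.00178) with roxadustat and 1.43 ± 0.21 (adjusted p = 0.000792) with DMOG. Pgam1, phosphoglycerate mutase of most tissues, measured 206 to 255 FPKM (median 220.0) in roxadustat libraries, 85.3 to 299 (median 264) in DMOG libraries and 71.4 to 97.1 (median 83.6) in PBS libraries and rose by 1.40 ± 0.22 (adjusted p = 0.00148) with roxadustat and 1.40 ± 0.22 (adjusted p = 0.000909) with DMOG. Eno1, the general enolase, measured 261 to 379 FPKM (median 348) in roxadustat libraries, 143 to 408 (median 332) in DMOG libraries and 131 to 169 (median 149.9) in PBS libraries. It rose by 1.14 ± 0.18 (adjusted p = 0.00156) with roxadustat and 0.97 ± 0.18 (adjusted p = 0.00183) with DMOG.

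Other forms of these steps gave no call. Bpgm, which makes 2,3-bisphosphoglycerate in red cells, stayed at 23.9 to 31.7 FPKM (median 26.4) in roxadustat libraries, 22.3 to 34.3 (median 30.3) in DMOG libraries and 20.8 to 37.6 (median 34.1) in PBS libraries, with differences of -0.17 ± 0.14 (adjusted p = 0.528) with roxadustat and -0.04 ± 0.14 (adjusted p = 0.842) with DMOG. Summed erythroid markers overlapped too, at 1003 to 2375 FPKM with roxadustat, 1184 to 3231 FPKM with DMOG and 859 to 1871 FPKM with PBS, and their part in the Bpgm values was not tested. Pgam2, the muscle mutase, read 0.175 to 0.797 FPKM over the 18 libraries, near the filter. Eno3, the muscle enolase, read 1.36 to 1.505 FPKM in DMOG libraries and 1.52 to 1.98 FPKM in PBS libraries, apart but with a difference of -0.18 ± 0.10 (adjusted p = 0.218) that was not called.

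Pyruvate kinase ends the chain. Pkm2 measured 85.7 to 227 FPKM (median 159) in roxadustat libraries, 46.7 to 172 (median 130.4) in DMOG libraries and 49.1 to 90.5 (median 70.6) in PBS libraries in liver RNA. The lowest roxadustat library (85.7 FPKM) was within the PBS range. Pkm2 rose by 1.19 ± 0.28 (adjusted p = 0.02) with roxadustat, while the DMOG difference of 0.80 ± 0.28 (adjusted p = 0.0503) fell just short and was 1.07 ± 0.21 (adjusted p = 0.000855) without replicate 5. The roxadustat call for Pkm2 was lost when any of 4 of the 18 libraries was left out. Without DMOG replicate 5, Pkm2 rose by 1.19 ± 0.20 (adjusted p = 0.00095) with roxadustat. Pklr, the hepatocyte form, measured 11.4 to 37.9 FPKM (median 19.3) in roxadustat libraries, 11.8 to 22.4 (median 14.5) in DMOG libraries and 14.5 to 38.1 (median 26.2) in PBS libraries. Its groups overlapped, and the differences were -0.31 ± 0.25 (adjusted p = 0.534) with roxadustat and -0.72 ± 0.25 (adjusted p = 0.0527) with DMOG. Without replicate 5 Pklr fell by 0.84 ± 0.25 (adjusted p = 0.0164) with DMOG.

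Glycerol-3-phosphate dehydrogenases draw triose phosphate out of the chain for lipid synthesis and the electron shuttle. Gpd1, the cytosolic enzyme, measured 84.8 to 112 FPKM (median 96.7) in roxadustat libraries, 46.3 to 141 (median 66.7) in DMOG libraries and 102 to 168 (median 132) in PBS libraries in liver RNA. It fell by 0.88 ± 0.20 (adjusted p = 0.00498) with DMOG, and the roxadustat difference was -0.43 ± 0.20 (adjusted p = 0.244). Gpd1l, a related enzyme, measured 6.19 to 7.81 FPKM (median 7.004) in roxadustat libraries, 5.10 to 8.09 (median 6.13) in DMOG libraries and 6.88 to 9.51 (median 8.76) in PBS libraries and fell by 0.38 ± 0.10 (adjusted p = 0.011) with DMOG, against a difference of -0.25 ± 0.10 (adjusted p = 0.162) with roxadustat. Gpd2, the mitochondrial enzyme, measured 11.1 to 22.4 FPKM (median 15.2) in roxadustat libraries, 6.495 to 13.3 (median 9.55) in DMOG libraries and 9.82 to 15.7 (median 13.8) in PBS libraries. DMOG libraries reached below the PBS range and roxadustat libraries above it, with differences of 0.16 ± 0.19 (adjusted p = 0.692) with roxadustat and -0.52 ± 0.19 (adjusted p = 0.0651) with DMOG. Without replicate 5 Gpd2 fell by 0.59 ± 0.20 (adjusted p = 0.0306) with DMOG.

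Roxadustat set against DMOG in liver RNA gave 0 calls among 27 members in either direction, where 1.86% of genes were higher and 1.14% lower. At an unadjusted p under 0.05 there were 5, of which 2 were higher and 3 lower, and the smallest adjusted p was 0.0611, for Gpd2. Doses and times are not in the labels, so the comparison is between these libraries and not between matched doses. A p that misses the threshold does not show that the drugs act alike, so intervals are given. Pfkl differed by 0.17 (95% interval -0.40 to 0.73, adjusted p = 0.811), Gpi1 by -0.85 (95% interval -1.63 to -0.07, adjusted p = 0.233) and Aldoa by -0.01 (95% interval -0.65 to 0.62, adjusted p = 0.99). Gpd2 differed by 0.69 (95% interval 0.28 to 1.09, adjusted p = 0.0611). Without DMOG replicate 5, 2 members were higher with roxadustat (9.06% of genes) and 7 were lower (7.15% of genes). The higher members were Gpd1, by 0.65 ± 0.14 (adjusted p = 0.00427), and Gpd2, by 0.75 ± 0.20 (adjusted p = 0.0167). The lower members were Gpi1 at -1.33 ± 0.12 (adjusted p = 1.81e-06), Pfkp at -0.84 ± 0.22 (adjusted p = 0.015), Pfkfb3 at -0.77 ± 0.11 (adjusted p = 0.000153), Aldoc at -0.61 ± 0.12 (adjusted p = 0.00157), and Aldoa, Pgk1 and Pgam1 at adjusted p of 0.0411 to 0.0453.

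In retina RNA, roxadustat raised most of the core chain. Against PBS, 11 of 27 members rose and 2 fell, where 1.69% of the 13779 genes tested rose and 0.653% fell. The rising members were Hk2, Gpi1, Pfkl, Pfkp, Aldoa, Tpi1, Gapdh, Pgk1, Pgam1, Eno1 and Pkm2, and in all 11 the roxadustat libraries lay above the PBS libraries without overlap, as in 1.44% of genes. The falling members were Eno3 and Gpd1, and 0 members had groups apart downward (0.494% of genes). Leaving out any of 10 of the 18 libraries lost the call for Eno3, and any of 4 lost that for Hk2. The median log2 fold change was 0.19 over members and 0.00 over all genes. Summed erythroid markers were 12.8 to 57.1 FPKM (median 34.8) with roxadustat and 10.9 to 19.4 FPKM with PBS. Summed neutrophil markers were 0.946 to 6.78 and 0.199 to 0.970 FPKM in the same order. Estimated relative depth was 0.780 to 1.19 (median 1.08) with roxadustat and 0.817 to 0.896 with PBS. The part of these markers and of depth in the roxadustat calls was not tested.

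DMOG raised some steps of the chain in retina RNA. Against the same PBS libraries, 4 of 27 members rose, namely Gpi1, Pfkl, Aldoa and Gapdh, and 3 fell, namely Pgam2, Eno3 and Gpd1, where 0.37% of genes rose and 0.697% fell. Groups stood apart for 5 members upward, the 4 called and Pkm2, and for 3 downward, against 0.523% and 0.639% of genes. The median was 0.07 over members and 0.01 over all genes. Leaving out 1 library at a time, the 7 calls became 2 to 8. Of the 18 libraries, any of 13 left out lost the call for Aldoa, 12 for Eno3 and 11 for Gapdh. Any of 6 lost that for Pgam2 and any of 5 that for Gpi1, while Pfkl and Gpd1 kept theirs. Other tissue markers moved with these groups: lens sums were 11.7 to 876 FPKM with DMOG and 1971 to 22468 FPKM with PBS, and erythroid sums (8 of 10 markers listed, none at 0 throughout) were 23.8 to 47.5 FPKM with DMOG and 10.9 to 19.4 FPKM with PBS. Estimated relative depth was also apart, at 0.920 to 1.26 with DMOG and 0.817 to 0.896 with PBS. With the lens sum as a term, which cannot be told apart from DMOG in these groups, 0 members were called, against 0.00726% of genes. The part of erythroid message and depth was not tested.

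Roxadustat exceeded DMOG in retina RNA for 9 of 27 members and was below it for 0, where 0.98% of genes were higher and 0.334% lower. These were Hk2, Gpi1, Pfkl, Pfkp, Aldoa, Tpi1, Gapdh, Pgk1 and Pgam1. Leaving out any of 6 of the 18 libraries lost the call for Gapdh, and any of 3 lost that for Hk2. In 7 members all roxadustat libraries lay above all DMOG libraries (1.2% of genes), and in 0 below (0.755% of genes). Again the doses and times of the 2 drugs are not in the labels.

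**Figure D2:**
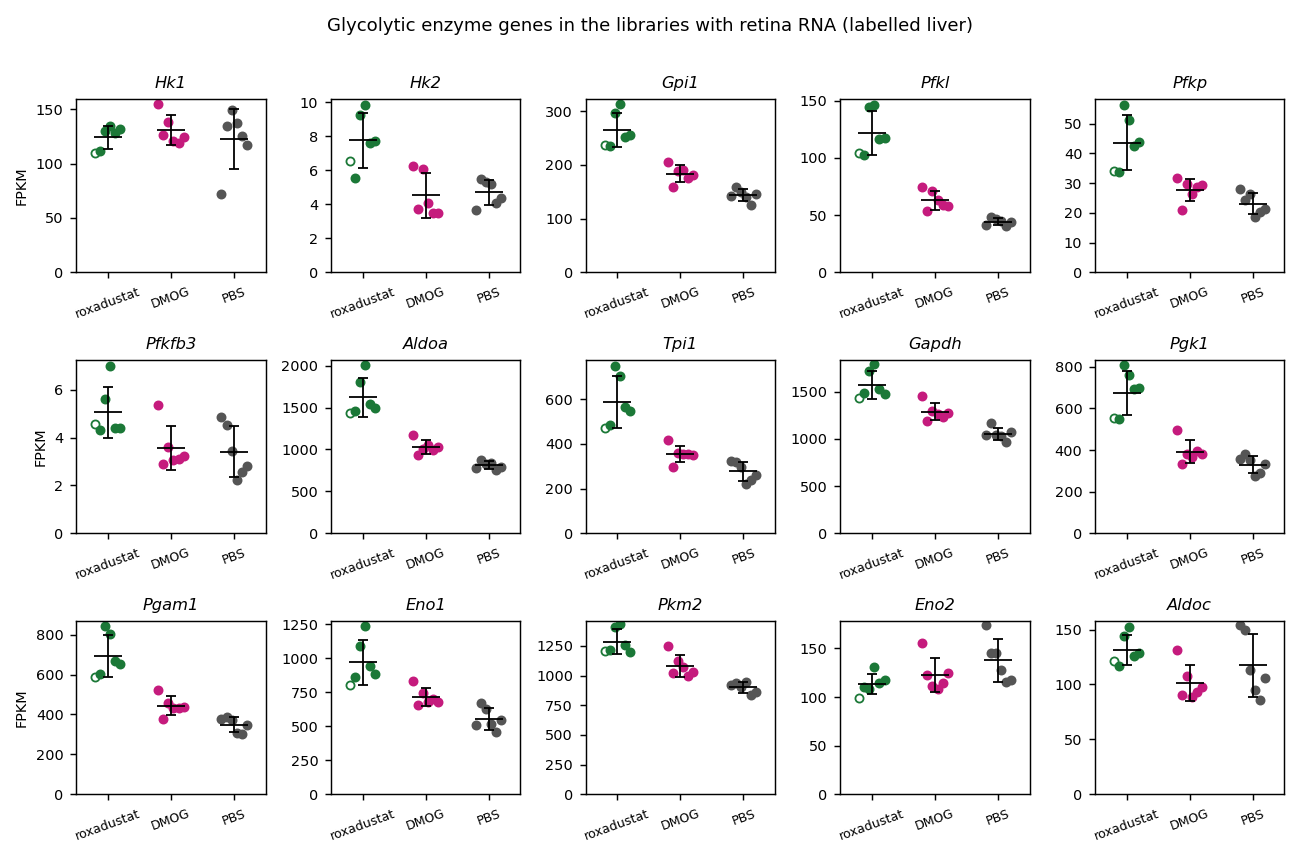
Levels in FPKM of 15 glycolysis genes in retina RNA (libraries labelled liver), 1 panel per gene, with 1 point per library, bars for the mean and SD, and columns for roxadustat, DMOG and PBS (6 libraries each). The open circle is roxadustat replicate 1, and for Pfkl the roxadustat libraries (103 to 146 FPKM) lie above all DMOG (53.2 to 74.6 FPKM) and PBS (40.4 to 48.5 FPKM) libraries.

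At the hexokinase step Hk1 carried most of the retina message, at 109.9 to 134 FPKM (median 129) in roxadustat libraries, 119 to 155 (median 125) in DMOG libraries and 71.9 to 149 (median 129.98) in PBS libraries. Its groups overlapped, with differences of 0.05 ± 0.13 (adjusted p = 0.892) with roxadustat and 0.12 ± 0.13 (adjusted p = 0.694) with DMOG. Hk2, which photoreceptors are known to use, measured 5.56 to 9.87 FPKM (median 7.69) in roxadustat libraries, 3.49 to 6.28 (median 3.89) in DMOG libraries and 3.69 to 5.51 (median 4.80) in PBS libraries. It rose by 0.66 ± 0.15 (adjusted p = 0.0244) with roxadustat against PBS and by 0.73 ± 0.15 (adjusted p = 0.0163) against DMOG. The DMOG difference from PBS was -0.07 ± 0.15 (adjusted p = 0.857). Hkdc1, a hexokinase-like gene, stayed between 5.92 and 9.59 FPKM and Adpgk between 7.62 and 9.25 FPKM.

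Gpi1 measured 236 to 313 FPKM (median 254) in roxadustat libraries, 158 to 206 (median 186) in DMOG libraries and 126 to 158 (median 144) in PBS libraries in retina RNA, with the 3 groups fully apart. It rose by 0.87 ± 0.08 (adjusted p = 9.45e-07) with roxadustat and 0.35 ± 0.08 (adjusted p = 0.032) with DMOG. Pfkl was the member that moved most upward in this tissue, at 103 to 146 FPKM (median 117) in roxadustat libraries, 53.2 to 74.6 (median 60.8) in DMOG libraries and 40.4 to 48.5 (median 44.4) in PBS libraries. Again the 3 groups did not overlap. Pfkl rose by 1.44 ± 0.09 (adjusted p = 3.72e-08) with roxadustat and 0.50 ± 0.09 (adjusted p = 0.0139) with DMOG, and roxadustat exceeded DMOG by 0.94 ± 0.09 (adjusted p = 1.26e-05). Pfkp measured 33.8 to 56.4 FPKM (median 43.1) in roxadustat libraries, 21.0 to 31.9 (median 28.9) in DMOG libraries and 18.7 to 28.1 (median 22.8) in PBS libraries and rose by 0.89 ± 0.13 (adjusted p = 0.00036) with roxadustat. Pfkm, at 31.7 to 43.2 FPKM (median 37.3) in roxadustat libraries, 34.7 to 44.0 (median 39.1) in DMOG libraries and 34.8 to 50.9 (median 40.1) in PBS libraries, overlapped between groups.

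The Pfkfb genes gave no call in retina RNA. Pfkfb2, a heart form and the most abundant of the 4 here, measured 28.8 to 44.1 FPKM (median 35.8) in roxadustat libraries, 37.2 to 65.6 (median 40.8) in DMOG libraries and 40.9 to 54.7 (median 44.1) in PBS libraries, with differences of -0.38 ± 0.13 (adjusted p = 0.114) with roxadustat and -0.09 ± 0.13 (adjusted p = 0.774) with DMOG. Pfkfb3 measured 4.31 to 7.01 FPKM (median 4.495) in roxadustat libraries, 2.90 to 5.35 (median 3.16) in DMOG libraries and 2.25 to 4.86 (median 3.13) in PBS libraries. Its roxadustat difference of 0.53 ± 0.17 (adjusted p = 0.101) missed the threshold. Pfkfb4 ranged from 4.49 to 5.57 FPKM and Pfkfb1 from 0.639 to 1.09 FPKM over the 18 libraries.

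Aldoa, among the most abundant members in retina RNA, measured 1439 to 2005 FPKM (median 1515) in roxadustat libraries, 929 to 1175 (median 1013) in DMOG libraries and 756 to 872 (median 812) in PBS libraries. The 3 groups were apart, and the rise was 0.99 ± 0.08 (adjusted p = 3.1e-07) with roxadustat and 0.34 ± 0.08 (adjusted p = 0.0425) with DMOG. Aldoc, at 117 to 152 FPKM (median 127) in roxadustat libraries, 88.2 to 131 (median 95.4) in DMOG libraries and 85.5 to 154 (median 109) in PBS libraries, overlapped, with differences of 0.19 ± 0.13 (adjusted p = 0.474) with roxadustat and -0.19 ± 0.13 (adjusted p = 0.529) with DMOG. Tpi1 measured 472 to 749 FPKM (median 557) in roxadustat libraries, 298 to 415 (median 355) in DMOG libraries and 219 to 325 (median 279) in PBS libraries. It rose by 1.08 ± 0.12 (adjusted p = 1.34e-05) with roxadustat, against a difference of 0.37 ± 0.12 (adjusted p = 0.16) with DMOG that was not called.

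Below the triose step, Gapdh measured 1437 to 1796 FPKM (median 1505) in roxadustat libraries, 1188 to 1454 (median 1272) in DMOG libraries and 969 to 1164 (median 1038) in PBS libraries. The rise was 0.58 ± 0.06 (adjusted p = 1.54e-05) with roxadustat and 0.29 ± 0.06 (adjusted p = 0.0386) with DMOG. Pgk1 measured 548 to 806 FPKM (median 694) in roxadustat libraries, 332 to 498 (median 382) in DMOG libraries and 274 to 380.2 (median 341) in PBS libraries, and the top DMOG library, replicate 1, came closest to the roxadustat range. It rose by 1.02 ± 0.11 (adjusted p = 8.49e-06) with roxadustat, while the DMOG difference was 0.24 ± 0.11 (adjusted p = 0.333). Pgam1 measured 589 to 843 FPKM (median 661) in roxadustat libraries, 379 to 524 (median 437) in DMOG libraries and 304 to 387 (median 360.0) in PBS libraries and rose by 0.98 ± 0.09 (adjusted p = 2.85e-06) with roxadustat, against a DMOG difference of 0.35 ± 0.09 (adjusted p = 0.0894). Bpgm kept to 44.1 to 54.4 FPKM over all groups.

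Among the enolases, Eno1 measured 806 to 1236 FPKM (median 912) in roxadustat libraries, 659 to 837 (median 690.4) in DMOG libraries and 456 to 671 (median 531) in PBS libraries in retina RNA and rose by 0.80 ± 0.10 (adjusted p = 9.31e-05) with roxadustat. The DMOG difference of 0.38 ± 0.10 (adjusted p = 0.0957) missed the threshold. Eno2, the neuronal enolase, measured 98.8 to 131 FPKM (median 112) in roxadustat libraries, 108 to 156 (median 119) in DMOG libraries and 116 to 175 (median 136) in PBS libraries and was called with neither drug, with differences of -0.27 ± 0.10 (adjusted p = 0.161) with roxadustat and -0.16 ± 0.10 (adjusted p = 0.484) with DMOG. Pkm2 measured 1202 to 1431 FPKM (median 1233) in roxadustat libraries, 995 to 1252 (median 1051) in DMOG libraries and 835 to 946 (median 912) in PBS libraries. It rose by 0.51 ± 0.06 (adjusted p = 5.18e-05) with roxadustat, and the DMOG difference, though its groups were apart, was 0.26 ± 0.06 (adjusted p = 0.0529). Gpd1l kept to 17.5 to 20.5 FPKM and Gpd2 to 3.49 to 4.45 FPKM over all groups.

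**Figure D3:**
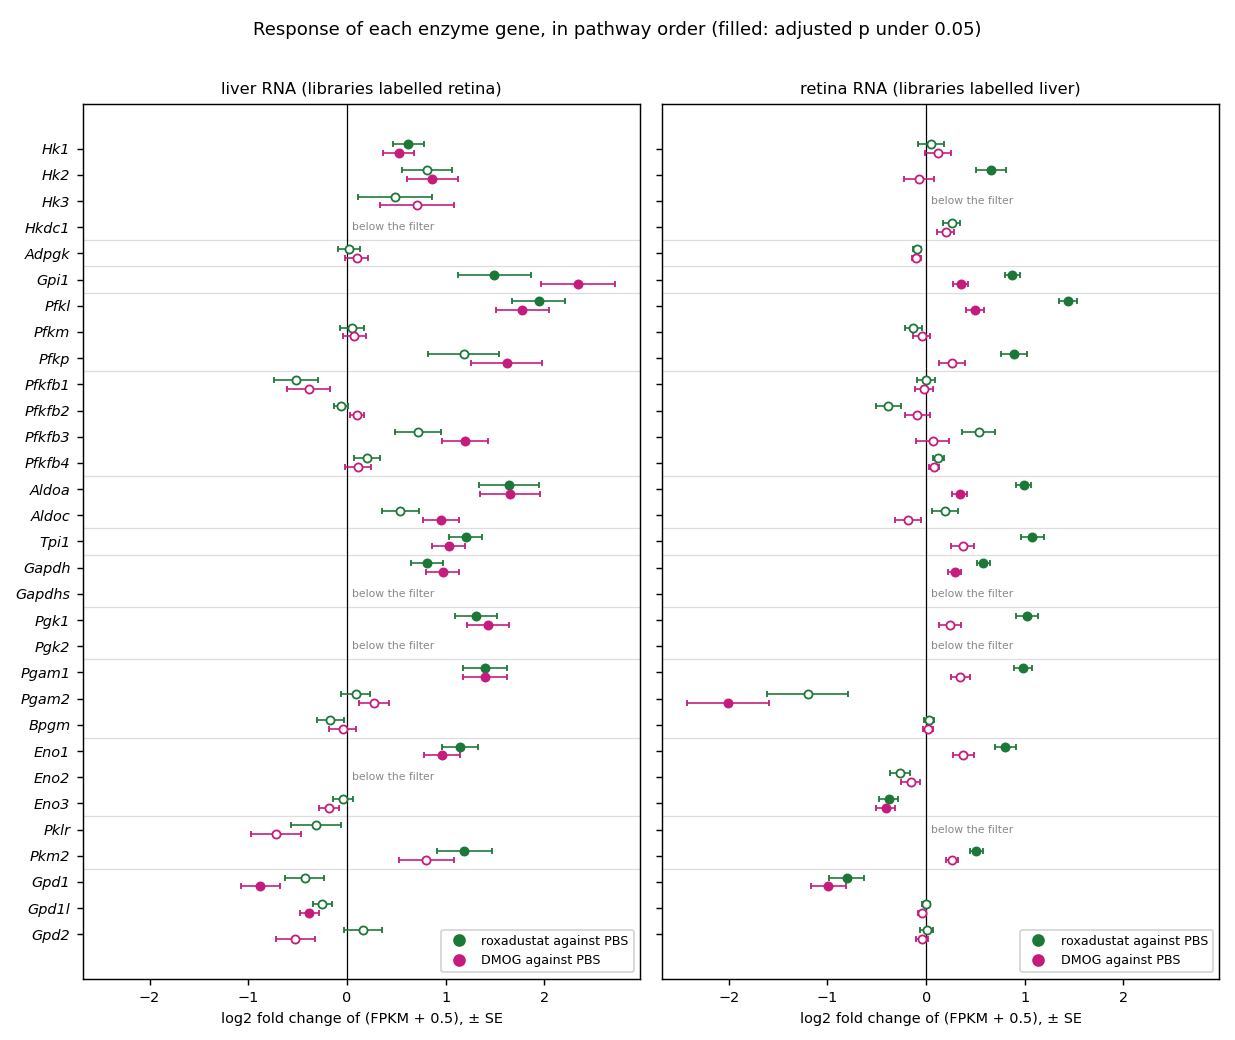
Log2 fold change against PBS, on the log2(FPKM + 0.5) scale with SE bars, of the members tested, in liver RNA and in retina RNA for roxadustat and DMOG, with filled points where adjusted p is below 0.05. Pfkl changed by 1.94 with roxadustat in liver RNA and by 1.44 in retina RNA, whereas with DMOG it changed by 1.78 in liver RNA and by 0.50 in retina RNA.

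Of the 3 members that fell with DMOG in retina RNA, levels are given beside the markers of the lens, a tissue next to the retina in the eye. Pgam2, the muscle phosphoglycerate mutase, measured 3.81 to 20.4 FPKM (median 4.36) in roxadustat libraries, 2.35 to 4.06 (median 3.10) in DMOG libraries and 5.71 to 35.1 (median 14.4) in PBS libraries, and roxadustat replicate 1 was the high roxadustat library. It fell by 2.01 ± 0.41 (adjusted p = 0.0233) with DMOG. Gpd1 measured 0.677 to 1.64 FPKM (median 0.843) in roxadustat libraries, 0.572 to 0.931 (median 0.770) in DMOG libraries and 1.23 to 3.46 (median 1.96) in PBS libraries and fell by 0.80 ± 0.18 (adjusted p = 0.0183) with roxadustat and by 0.99 ± 0.18 (adjusted p = 0.00934) with DMOG. Eno3 measured 14.5 to 22.1 FPKM (median 15.5) in roxadustat libraries, 15.2 to 17.8 (median 16.2) in DMOG libraries and 17.96 to 26.6 (median 21.9) in PBS libraries and fell by 0.38 ± 0.10 (adjusted p = 0.0402) with roxadustat and by 0.41 ± 0.10 (adjusted p = 0.0431) with DMOG. The summed level of 5 lens markers (Cryaa, Cryba1, Crygs, Bfsp1 and Mip, none at 0 throughout) ran from 190 to 11807 FPKM in roxadustat, 11.7 to 876 FPKM in DMOG and 1971 to 22468 FPKM in PBS libraries. The highest roxadustat sum was replicate 1, which also had the highest Pgam2, Gpd1 and Eno3 of its group. Summed skeletal muscle markers were 5.33 to 8.51, 5.29 to 6.68 and 5.42 to 8.26 FPKM in roxadustat, DMOG and PBS libraries. With the lens sum as a term in the fit, added after these values were seen, Pgam2 differed by -0.19 ± 0.47 (adjusted p = 0.9999) and Gpd1 by -0.25 ± 0.22 (adjusted p = 0.9999) with DMOG. Pfkl then differed by 0.38 ± 0.16 (adjusted p = 0.9999) with DMOG. For roxadustat against PBS, 10 members rose and 0 fell with that term, against 0.675% and 0.0871% of genes, and Hk2 at 0.64 ± 0.20 (adjusted p = 0.218), Eno3 and Gpd1 were no longer called. For roxadustat against DMOG 7 members were higher and 0 lower, against 0.682% and 0.152% of genes.

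**Figure D4:**
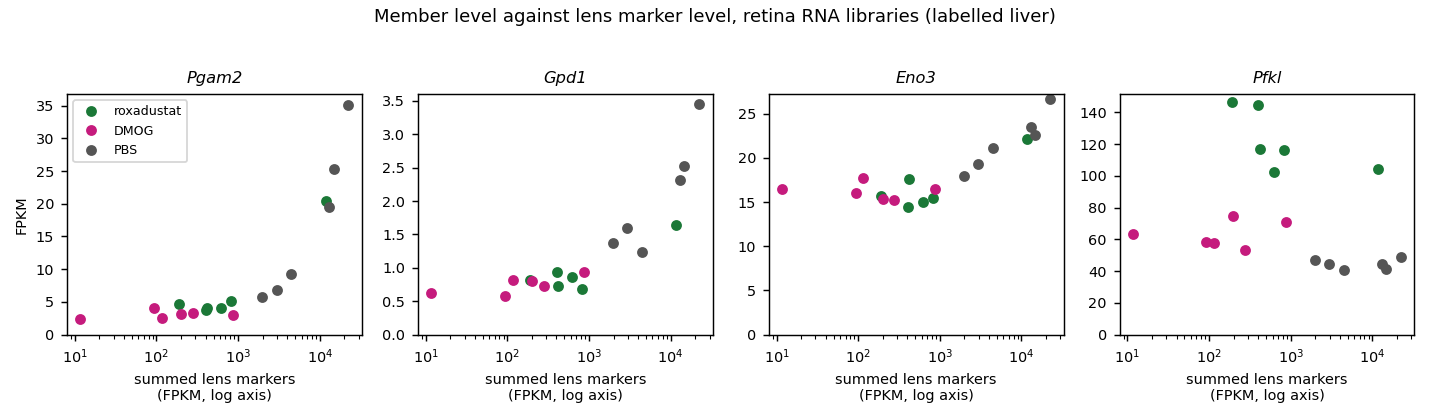
FPKM of Pgam2, Gpd1, Eno3 and Pfkl in the 18 libraries of retina RNA (linear y axes) against the summed FPKM of 5 lens markers (log x axis), coloured by roxadustat, DMOG or PBS. Pgam2 reaches 20.4 FPKM in the roxadustat library with a lens sum of 11807 FPKM, while the other 5 roxadustat libraries have 5.16 FPKM or less.

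The responses of the tissues differed for DMOG and gave no call for roxadustat. The difference, the response in liver RNA minus that in retina RNA, was tested over 36 libraries and 11101 genes, and 25 members could enter. For DMOG, 12 members responded more upward in liver RNA and 1 more downward, where 6.97% and 8.91% of genes did so. The differences were 1.99 ± 0.39 (adjusted p = 0.000895) for Gpi1, 1.36 ± 0.39 (adjusted p = 0.0175) for Pfkp, 1.31 ± 0.32 (adjusted p = 0.00569) for Aldoa and 1.28 ± 0.29 (adjusted p = 0.00355) for Pfkl. They were 1.18 ± 0.24 (adjusted p = 0.00142) for Pgk1, 1.14 ± 0.23 (adjusted p = 0.00131) for Aldoc, 1.13 ± 0.30 (adjusted p = 0.00969) for Pfkfb3 and 1.05 ± 0.25 (adjusted p = 0.00401) for Pgam1. Smaller differences were 0.94 ± 0.31 (adjusted p = 0.0358) for Hk2, 0.68 ± 0.18 (adjusted p = 0.00901) for Gapdh and 0.66 ± 0.21 (adjusted p = 0.0302) for Tpi1. Pgam2 differed by 2.28 ± 0.46 (adjusted p = 0.00106) beside its fall in retina RNA, where lens sums with DMOG all lay below those with PBS and where the lens term left -0.19 ± 0.47 (adjusted p = 0.9999). Its level in liver RNA was near the filter. For all 13 members the retina RNA side of the DMOG difference cannot be told apart from lens content. Gpd1l differed downward, by -0.34 ± 0.11 (adjusted p = 0.0286). The Hk2 difference lost its call when any of 13 of the 36 libraries was left out, that of Tpi1 when any of 7 was and that of Gpd1l when any of 4 was. Without liver RNA DMOG replicate 5, 15 members were higher and 3 lower, against 13.3% and 15.5% of genes.

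For roxadustat 0 members differed in response between tissues in either direction, where 1.22% and 1.03% of genes did. There were 7 at an unadjusted p under 0.05, and the smallest adjusted p was 0.136, for Pgam2. The Pfkl response differed by 0.51 ± 0.29 (adjusted p = 0.414) and the Hk2 response by 0.15 ± 0.31 (adjusted p = 0.861). Without DMOG replicate 5, which narrows the shared spread, 3 were higher (2.26% of genes) and 0 lower (2.49% of genes), namely Aldoa, Gpi1 and Pfkl. Of the members that rose with roxadustat, 9 did so in both tissues, which is 90% of the 10 in liver RNA and 81.8% of the 11 in retina RNA. Over the 11101 genes tested in both, 60 did so, or 0.54%, which is 25.4% of those higher in liver RNA and 30.2% of those higher in retina RNA. Leaving out DMOG replicate 5, 11 members did so, 78.6% of 14 and 100% of 11, against 72 genes.

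Isozyme shares show how the message of a step was divided. FPKM is scaled to length, so isozymes of a step can be set side by side, and no test was made on shares. In retina RNA Pfkl was, by median, the largest part of the phosphofructokinase message in all 3 groups. It held 58.8 to 61.3% in roxadustat libraries (median 60.1%), 45.9 to 50.8% in DMOG libraries (median 48.5%) and 34.2 to 44.5% in PBS libraries (median 41.7%). The 3 groups did not overlap. Pfkm held a median of 18.7% in roxadustat libraries, 29.7% in DMOG libraries and 37.0% in PBS libraries, and Pfkp 21.6% in roxadustat libraries, 21.2% in DMOG libraries and 21.1% in PBS libraries. In liver RNA Pfkl held 88.5% in roxadustat libraries, 84.8% in DMOG libraries and 75.3% in PBS libraries at the median. Pfkm, whose level gave no call, held a median of 4.35% in roxadustat libraries, 3.82% in DMOG libraries and 14.6% in PBS libraries.

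Within the Pfkfb family of liver RNA, Pfkfb3 held 33.7% in roxadustat libraries, 46.9% in DMOG libraries and 18.5% in PBS libraries at the median and Pfkfb1 held 41.6% in roxadustat libraries, 30.0% in DMOG libraries and 57.5% in PBS libraries. Pfkfb3 exceeded Pfkfb1 in DMOG replicates 1, 3, 4 and 6 but not in replicate 2, where Pfkfb1 held 47.3% and Pfkfb3 35.0%, nor in replicate 5, where Pfkfb1 held 70.3% and Pfkfb3 12.02%. In retina RNA Pfkfb2 held the largest share, 75.7% in roxadustat libraries, 81.8% in DMOG libraries and 83.8% in PBS libraries. Of the hexokinases in the set, Hk3 held the largest share in liver RNA, 50.3% in roxadustat libraries, 57.1% in DMOG libraries and 55.1% in PBS libraries. In retina RNA Hk1 held 88.3% in roxadustat libraries, 91.2% in DMOG libraries and 91.2% in PBS libraries and Hk2 5.32% in roxadustat libraries, 2.88% in DMOG libraries and 3.43% in PBS libraries. For the last step in liver RNA, Pklr held 8.32 to 20.8% in roxadustat libraries (median 10.1%), 7.03 to 32.4% in DMOG libraries (median 9.21%) and 14.6 to 42.4% in PBS libraries (median 29.7%), and the top of the DMOG range was replicate 5. Retinal Eno2 held 8.91 to 11.6% in roxadustat libraries (median 10.7%), 12.8 to 15.5% in DMOG libraries (median 14.5%) and 17.1 to 24.8% in PBS libraries (median 18.7%) of the enolase message, with the 3 groups apart.

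**Figure D5:**
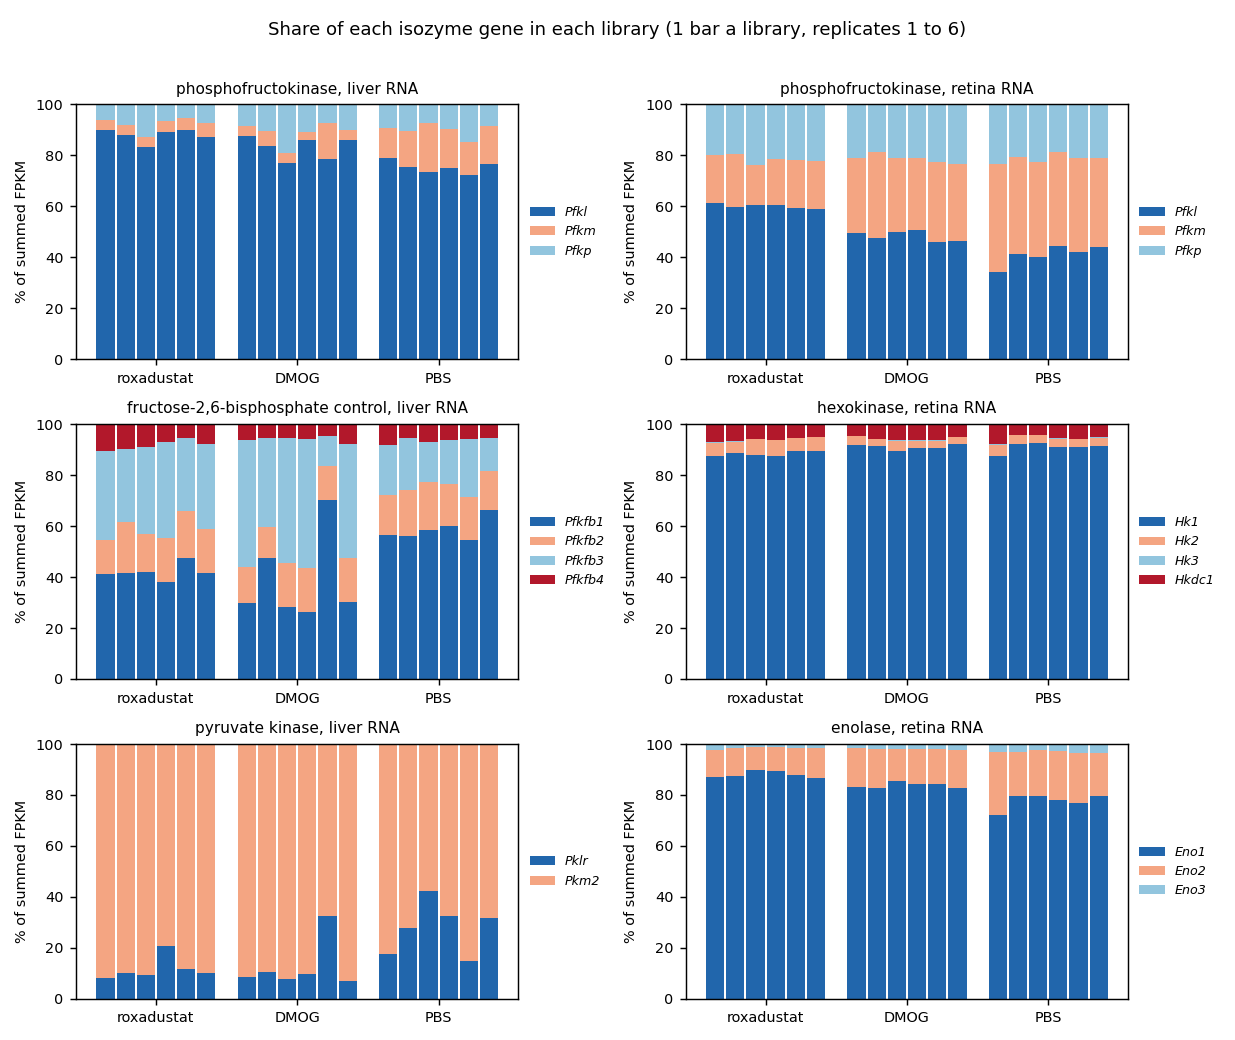
Share of each isozyme in the summed FPKM of its step, in percent, as stacked bars with 1 bar per library, grouped as roxadustat, DMOG and PBS (6 each), for phosphofructokinase in both tissues, Pfkfb genes and pyruvate kinase in liver RNA, and hexokinase and enolase in retina RNA. In retina RNA the median Pfkl share is 60.1% with roxadustat, 48.5% with DMOG and 41.7% with PBS.

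Genes that feed the chain or take its product were also called. Of 17 tested genes of sugar entry and of pyruvate or lactate exit in liver RNA, 6 rose and 0 fell with roxadustat, and 7 rose and 2 fell with DMOG. Over all genes 2.16% rose and 2.02% fell with roxadustat, and 8.26% rose and 11.7% fell with DMOG. Leaving out DMOG replicate 5, 9 rose and 3 fell with DMOG and 7 rose and 0 fell with roxadustat, against 17.3% and 18.1% of genes for DMOG and 4.12% and 4.65% for roxadustat. Slc16a3, a lactate exporter, rose by 2.57 ± 0.35 (adjusted p = 0.000555) and 1.36 ± 0.35 (adjusted p = 0.0104) with roxadustat and DMOG. Pdk1, a kinase that inhibits pyruvate dehydrogenase, rose by 1.60 ± 0.22 (adjusted p = 0.000555) and 1.44 ± 0.22 (adjusted p = 0.000792). Ldha, a subunit of the lactate dehydrogenase that makes lactate from pyruvate, rose by 0.68 ± 0.12 (adjusted p = 0.00324) and 0.68 ± 0.12 (adjusted p = 0.00143), and Slc2a1, the glucose transporter of most cells, by 1.44 ± 0.22 (adjusted p = 0.0012) and 1.16 ± 0.22 (adjusted p = 0.00199). Slc16a1, which carries lactate and pyruvate, rose by 0.79 ± 0.12 (adjusted p = 0.000812) with DMOG. Slc2a2, the hepatocyte glucose transporter, fell by 0.94 ± 0.24 with DMOG (adjusted p = 0.0118).

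In retina RNA, 4 of 16 such genes rose and 0 fell with roxadustat, and 1 rose and 0 fell with DMOG. Over all genes 1.69% rose and 0.653% fell with roxadustat, and 0.37% rose and 0.697% fell with DMOG. Slc16a3 measured 45.9 to 82.0 FPKM (median 53.5) in roxadustat libraries, 12.2 to 24.6 (median 15.4) in DMOG libraries and 4.28 to 13.7 (median 9.26) in PBS libraries. It rose by 2.76 ± 0.24 (adjusted p = 1.12e-06) with roxadustat. Pdk1 rose by 1.48 ± 0.15 (adjusted p = 4.48e-06), Ldha by 0.87 ± 0.06 (adjusted p = 1.17e-07) and Slc2a1 by 0.55 ± 0.11 (adjusted p = 0.00609) with roxadustat. Ldha was the gene that rose with DMOG, by 0.32 ± 0.06 (adjusted p = 0.022).

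Enzymes that make glucose or divert it are read against the same shares of all genes. In liver RNA 2.16% of genes rose and 2.02% fell with roxadustat, and 8.26% rose and 11.7% fell with DMOG. In retina RNA 1.69% rose and 0.653% fell with roxadustat, and 0.37% rose and 0.697% fell with DMOG. Of 8 glucose-making genes tested in liver RNA 1 rose with roxadustat, the gluconeogenic Pck1 at 0.94 ± 0.20 (adjusted p = 0.00921), and 3 rose with DMOG, namely Pck1 at 0.91 ± 0.20 (adjusted p = 0.00422), Fbp1 at 0.51 ± 0.13 (adjusted p = 0.0102) and Pcx at 0.43 ± 0.15 (adjusted p = 0.0486), with 0 falling in either. Leaving out DMOG replicate 5, 3 rose and 1 fell with DMOG, against 17.3% and 18.1% of genes. In retina RNA 4 such genes were tested and 1, the glucose-6-phosphate transporter Slc37a4, rose with roxadustat, by 0.54 ± 0.06 (adjusted p = 1.85e-05). Of 8 pentose phosphate genes in liver RNA, 0 were called with roxadustat and 1, H6pd, rose with DMOG, against 8.26% of genes. Without DMOG replicate 5, 4 rose with DMOG, against 17.3% of genes. In retina RNA 1, Pgd, rose with roxadustat by 0.32 ± 0.04 (adjusted p = 0.000232) and 0 were called with DMOG.

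HIF targets outside sugar metabolism also moved. Of 8, 6 rose with roxadustat and 7 with DMOG in liver RNA, and 5 rose with roxadustat and 1, Ankrd37, with DMOG in retina RNA, with 0 falling. The shares of all genes that rose were 2.16% and 8.26% in liver RNA and 1.69% and 0.37% in retina RNA, for roxadustat and DMOG, and lens sums in retina RNA were apart between DMOG and PBS. Egln1, which codes for a HIF prolyl hydroxylase, rose by 1.12 ± 0.17 (adjusted p = 0.00127) and 1.18 ± 0.17 (adjusted p = 0.000792) in liver RNA with roxadustat and DMOG. In retina RNA Egln1 rose by 0.91 ± 0.07 (adjusted p = 1.17e-07) with roxadustat, and its difference with DMOG was 0.27 ± 0.07 (adjusted p = 0.066). Median log2 fold changes of this list were 1.15 and 1.43 in liver RNA, and 0.80 and 0.28 in retina RNA, for roxadustat and DMOG. Without DMOG replicate 5, 7 rose with each drug in liver RNA, against 4.12% of genes with roxadustat and 17.3% with DMOG. The DMOG median was then 1.68. Egln3, by which replicate 5 was set apart, belongs to this list, so the values without it are no separate check of the drugs.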

How the data were processed

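Total RNA from 36 libraries, 6 per treatment and tissue name, had been extracted with RNeasy and made into libraries with TruSeq Stranded Total RNA and Ribo-Zero Gold, per the labels' protocols. The deposited values are FPKM per gene, 1 table per tissue name. The submitters' processing notes list the genome build mm9 and, as tools, Cuffdiff 2.2.1, TopHat2 version 2 and bcl2fastq 1.8.3. The annotation, the scaling between libraries and whether counting used strand are not given in the sources used here, and absolute depth is unknown. Relative depth, estimated from the spacing of low values, was 0.732 to 1.22 of the arithmetic mean over libraries in liver RNA and 0.780 to 1.26 in retina RNA. The labels do not say that replicates are separate animals, though each group held both sexes and so did not come from 1 animal, and p-values reflect how much these libraries vary.

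Genes that averaged 0.5 FPKM or more over a table's libraries were tested on log2(FPKM + 0.5) with limma 3.58.1 (R 4.3.3), with variance moderated along the mean, 3 group means per table and Benjamini-Hochberg adjustment over all genes of that table. This scale understates the changes of low genes. Differences between tissues were tested over 36 libraries as an interaction, so each response stays within its own table. The steps were tested on simulated data. Ranges, shares and figures were made with Python 3.11.15, pandas 2.3.3, numpy 2.4.6 and matplotlib 3.10.9. All members were to be accounted for, with full statistics for those called, and up to 4 genes of each neighbouring list with the smallest adjusted p; Slc2a2, and Slc16a3 with DMOG in liver RNA, were named after their values were seen. Some genes next to the chain are not reported here. Members and lists were chosen with earlier results of these data known. Alternatives covered the pseudocount, filter, scaling, samples fitted, sex, replicate block and each library left out, and a lens term was added after seeing the data.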

Additional observations from a re-analysis of the deposited data

Results flagged for a closer look

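Of 162 groups of 6 libraries examined, 1 member and 1 treatment at a time, 16 held a library whose distance from the others was large for the spread of its group. Chance marks about 1 in 20 groups, or 5 percent. Liver RNA DMOG replicate 5 accounted for 5 of them. It was the lowest DMOG library for Aldoa (70.7 FPKM), Hk2 (1.61 FPKM), Pfkfb3 (2.59 FPKM) and Pgam1 (85.3 FPKM), and the highest for Pklr (22.4 FPKM). In the same library Epo was listed at 0, against 17.2 to 24.6 FPKM in the other 5 DMOG libraries.

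Retina RNA DMOG replicate 1 was the highest of its group for Eno2 (156.0 FPKM), Pfkfb2 (65.6 FPKM), Pfkfb3 (5.35 FPKM) and Pgk1 (498 FPKM). Retina RNA roxadustat replicate 1, the roxadustat library with the most lens message, was the highest of its group for Pgam2 (20.4 FPKM) and Gpd1 (1.64 FPKM). Single libraries stood high for Adpgk in liver RNA DMOG replicate 2 (14.0 FPKM), Pfkfb1 in retina RNA PBS replicate 5 (0.993 FPKM), Pfkm in liver RNA PBS replicate 3 (5.12 FPKM), and Pfkfb4 (1.61 FPKM) and Pfkl (25.6 FPKM) in liver RNA PBS replicate 1.

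The response to DMOG differed between tissues by limma's interaction test for 13 members. In retina RNA all DMOG lens sums (11.7 to 876 FPKM) lay below all PBS lens sums (1971 to 22468 FPKM), so that side of the difference cannot be told apart from lens content. Expressed as the log2 response in liver RNA minus that in retina RNA, the difference was 2.28 for Pgam2, 1.99 for Gpi1, 1.36 for Pfkp, 1.31 for Aldoa, 1.28 for Pfkl and 1.18 for Pgk1. It was 1.14 for Aldoc, 1.13 for Pfkfb3, 1.05 for Pgam1, 0.94 for Hk2, 0.68 for Gapdh, 0.66 for Tpi1 and -0.34 for Gpd1l.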

How the results depend on the processing

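Over 7026 member values recomputed under the alternatives, 6782 kept their side of the threshold, 156 lost a call and 88 gained one. Of the values called in the main fit or the alternative, 0 changed direction. Changes of direction among uncalled values were not counted. For roxadustat against PBS in liver RNA, fitting only the groups compared gave 16 called members in place of 10, and sex as a term gave 14, adding Aldoc, Hk2, Pfkfb3 and Pfkp. For DMOG against PBS in retina RNA, 7 members were called, against 4 with no filter on low values, 4 with the replicate block and 0 with the lens term, and for roxadustat against DMOG in liver RNA the replicate block gave 1, Gpd2, in place of 0. The labels do not say whether replicate numbers pair the libraries. Correlations of deviations between libraries of the same number ran from -0.333 to 0.546. Between DMOG and roxadustat their medians were 0.0903 in liver RNA and 0.123 in retina RNA, against -0.0178 and -0.0242 for other numbers. For the other pairs of groups the same-number medians ran from -0.170 to 0.0770. The cause of the changes in calls was not tested. Counts of members in this section stand without the share of all genes called in the same fit. They do not compare the members with other genes.

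Leaving out 1 library at a time, the members called were 7 to 14 for roxadustat and 13 to 20 for DMOG against PBS in liver RNA, and 0 to 9 for roxadustat against DMOG. In retina RNA they were 11 to 14 for roxadustat, 2 to 8 for DMOG and 7 to 11 for roxadustat against DMOG. For differences between tissues they were 10 to 18 for DMOG and 0 to 3 for roxadustat. The 9 and the 3 came without liver RNA DMOG replicate 5, and the roxadustat difference had 1 call without retina RNA roxadustat replicate 1 or PBS replicate 1. For DMOG in retina RNA, 2 members were called without DMOG replicate 4 or 6 or PBS replicate 1 or 6. There were 3 without DMOG replicate 2 or 5, and 4 without DMOG replicate 1, PBS replicate 2 or roxadustat replicate 2 or 5. Absolute depth is unknown, so no counting error could be given for low members.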
